A study of Rattus norvegicus with 10 samples.

Results

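The enzymes described here are 8 proteins of the mevalonate pathway, taken by their gene symbols: Acat2, Hmgcs1, Mvk, Pmvk, Mvd, Idi1, Fdps and Ggps1. All 8 were among the 23051 genes of the deposited table and all passed the filter on low counts, as did 12893 genes in all. Bulk RNA sequencing was done on TDSCs, stem cells derived from rat tendon, on day 3 of osteogenic differentiation. The control group (n = 5 libraries) had osteogenic induction alone and the farnesol group (n = 5) had the same induction with 50 µM farnesol. Titles call the controls untreated, whereas the names of their libraries resemble the word vehicle, so the labels do not settle whether they held solvent. The labels number biological replicates without naming animals or cultures. The p-values therefore describe variation among these libraries, which may be technical.

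The mevalonate pathway builds isoprene units from acetyl-CoA and joins them into farnesyl diphosphate, the branch point from which cells make sterols, prenyl anchors of proteins, ubiquinone and dolichol. Farnesol is the alcohol that corresponds to farnesyl diphosphate, so the compound added to these cultures is close to a product of the enzymes measured. Transcription of most of these genes is known to be driven by SREBP-2, a transcription factor that is released from the endoplasmic reticulum when membrane sterol is low and that works together with NF-Y, which binds CCAAT boxes. The comparison asks whether the mRNAs of this route differ between cultures with and without farnesol.

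With farnesol, 7 of the 8 enzyme mRNAs rose and 1, Ggps1, fell, a fall whose call ended once a difference between libraries described below was taken into account (log2 fold change -0.03 or 0.04, by the covariate used). With a trend over gene length removed instead, the fall was still called (-0.25). Mvd, which decarboxylates mevalonate diphosphate, rose 2.55-fold, and Fdps, which makes farnesyl diphosphate, rose 2.4-fold. Acat2, the cytosolic thiolase that makes acetoacetyl-CoA, rose 2.17-fold, and Idi1, the isopentenyl diphosphate isomerase, 1.34-fold. Ggps1, which adds a further isoprene unit to farnesyl diphosphate, was 1.246-fold lower. Calls are by edgeR's quasi-likelihood test at an adjusted p (Benjamini-Hochberg over all 12893 genes) under 0.05. By that rule 59.5% of all tested genes changed, 29.4% rose and 30.1% fell, so a change in itself is common in these libraries. A rise of at least 2-fold was rarer, at 1.05% of tested genes, and 4 of the 8 enzymes had one. Of these 4, Acat2 alone stayed at or above a log2 fold change of 1 with either covariate described below, whereas Fdps, Mvk and Mvd did not. The median log2 fold change of the 8 was 1.00, against 0.01 over all tested genes.

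Promoters of 7 of the 8 genes were matched by symbol in RefSeq (build GRCr8, each from 250 bases before to 50 after the annotated start). Pmvk was not matched. Of these, 3 are shown: Fdps for its sterol element, Mvk for the most CCAAT boxes of the 7, and Ggps1 as the gene whose mRNA was lower. They were picked with their motifs and values known, so they do not show that motifs go with direction. Capitals mark CCAAT or its reverse complement ATTGG and, in Fdps, TCACACGAG, the core of the sterol regulatory element called SRE-3, which was first described in the promoter of this gene, so the match there is not an independent one. The Fdps window is chr2:176804767-176805066, the Mvk window chr12:47819454-47819753, both on the minus strand, and the Ggps1 window chr17:55958500-55958799 on the plus strand.
Fdps: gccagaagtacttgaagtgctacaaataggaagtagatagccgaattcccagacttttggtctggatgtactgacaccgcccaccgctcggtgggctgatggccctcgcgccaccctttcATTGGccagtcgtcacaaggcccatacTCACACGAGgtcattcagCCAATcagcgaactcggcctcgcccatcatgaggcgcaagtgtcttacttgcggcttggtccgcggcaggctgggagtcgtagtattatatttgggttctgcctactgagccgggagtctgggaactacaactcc
Mvk: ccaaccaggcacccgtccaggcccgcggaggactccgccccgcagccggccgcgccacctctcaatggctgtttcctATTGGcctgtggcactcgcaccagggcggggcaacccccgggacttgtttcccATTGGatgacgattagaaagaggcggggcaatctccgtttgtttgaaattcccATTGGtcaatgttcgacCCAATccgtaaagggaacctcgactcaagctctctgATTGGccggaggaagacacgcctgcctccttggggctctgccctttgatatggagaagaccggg
Ggps1: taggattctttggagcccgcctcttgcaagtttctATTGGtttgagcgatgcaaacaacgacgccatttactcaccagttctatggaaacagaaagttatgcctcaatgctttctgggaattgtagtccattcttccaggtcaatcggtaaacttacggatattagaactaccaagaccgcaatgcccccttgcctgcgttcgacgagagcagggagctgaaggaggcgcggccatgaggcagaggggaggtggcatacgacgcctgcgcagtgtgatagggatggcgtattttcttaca

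In the Fdps window the SRE-3 core lay from base -103 to -95 before the start, between an ATTGG at -130 and a CCAAT at -85. Mvk held 5 CCAAT boxes on either strand, and Ggps1 held 1, at -215. Of the 7 matched enzymes, 6 had at least 1 CCAAT box, against 37.5% of all 33469 promoters and 37.4% of the 11691 matched promoters of tested genes, and 5 had at least 2 (11.2% and 13.2%). Acat2, which rose 2.17-fold, was the one without, while Mvd, with the largest rise, and Idi1, with the smallest, had 2 each. GGGCGG, the GC box that Sp1 binds, was found on either strand in 5 of the 7 (33.1% of all promoters and 59.8% of those of tested genes), with none in Idi1 or Ggps1. TCACACGAG was in 0.123% of all promoters. TCACCCCAC, the core of the sterol regulatory element called SRE-1, and CACGTG, the E box, were not found in any of the 7 windows on either strand, against 0.484% and 6.42% of all promoters. These motifs were chosen for their known roles in sterol regulation, no 2 of the matches overlapped, and a match is a description of letters and not of binding.

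The libraries held 41.8 to 47.1 M counts each, and the 8 enzymes had between 296 and 22413 counts per library, so depth did not limit their detection. Of the 7 markers of tendon, 5 fell with groups that did not overlap, where 20.9% of all tested genes had groups apart in that direction. Among them were Tnc (2.42-fold lower) and Scx (1.65-fold lower, 35.3 ± 4.35 CPM, or scaled counts, in control and 21.4 ± 4.34 CPM in farnesol). Marker calls here are from the fit with group as its only term. Col1a1, which makes up most of their sum of 17955 to 18963 CPM in control and 16663 to 18149 CPM in farnesol, did not pass, and Tnmd, a marker of mature tenocytes, had at most 1 count in any library. Of the markers of blood and endothelial cells, Ptprc, Adgre1 and Cdh5 were at 0 in all 10 libraries, and Cd68 rose from 1.52 ± 0.54 to 3.05 ± 0.357 CPM. The 4 haematopoietic and macrophage markers summed to 1.249 to 2.46 CPM in control and 3.24 to 3.79 CPM in farnesol, and the 4 endothelial markers to at most 0.441 CPM. The 4 smooth muscle markers summed to 7002 to 7877 CPM in control and 3951 to 4714 CPM in farnesol, and the 4 fat markers to 44.6 to 51.5 CPM and 86.2 to 93 CPM, most of it Fabp4. The fat markers did not move together. Fabp4 rose 1.95-fold, whereas Lep fell from 2.99 to 0.982 CPM (3.05-fold lower). Plin1 and Adipoq, with at most 14 and 5 counts in any library, were not tested. Whether these marker levels reflect a change of cell state that plays a part in the values of the enzymes was not tested. In bulk RNA, fewer cells of a type and less RNA per cell cannot be told apart.

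Libraries of one group also differed along 1 direction, the first principal component within groups, called the library axis here, which held 36.8% of the variance within groups. The relation of level to gene length varied with group too. The slope of log2 level on log2 gene length ran from -0.00266 to 0.17 in control libraries and from -0.185 to -0.0352 in farnesol libraries. The axis scores ran from -40.3 to 4.06 in control and from -0.074 to 59.9 in farnesol. Each enzyme is therefore given with 3 further fits, in which the axis score is a covariate, the length slope is a covariate, or a smooth length trend is removed from each library. The axis scores and the length slopes order the libraries nearly alike, so the covariate fits are not separate checks of each other. All 8 calls held with the trend removed. When the axis was added 7 enzymes rose and none fell, where 8.9% of all genes rose and 11.7% fell. When the length slope was added 6 rose and none fell, where 3.02% of all genes rose and 4.55% fell. With the length trend removed 7 rose and 1 fell, against 32.1% and 24.5% of all genes. The median log2 fold change of the 8 was 0.74, 0.75 and 0.83 in the 3 fits, against 0.00, 0.00 and 0.06 over all tested genes. Because group and covariate overlap so much, these fits can remove part of what farnesol did, and the part of the axis in each result was not tested beyond them.

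**Figure D1:**
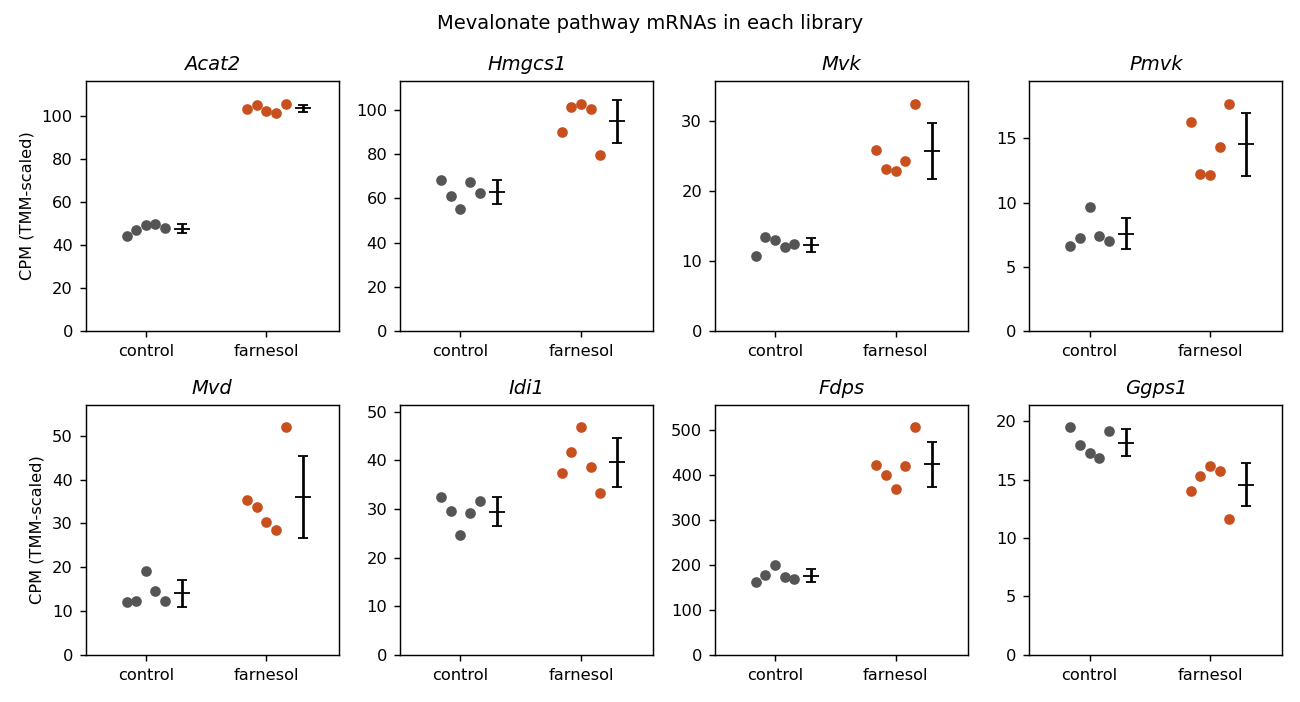
Level of each of the 8 enzyme mRNAs in CPM (TMM-scaled, linear axis from 0) in 5 control (grey) and 5 farnesol (orange) libraries, drawn in the order of replicates 1 to 5, with the mean and SD in black. The groups do not overlap for any of the 8, and Ggps1 is the one whose farnesol libraries lie below the controls.

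The route starts with the joining of acetyl units. Acat2 (chromosome 1, 47695788 to 47752821, plus strand; gene coordinates here and below are in build rn7) was at 44.2, 47.1, 49.3, 49.6 and 48.1 CPM in control replicates 1 to 5 and at 103, 105, 102, 101 and 106 CPM in farnesol replicates 1 to 5. The groups stand well apart and the libraries within each are close, with a coefficient of variation of 4.58% in control and 1.72% in farnesol. Acat2 rose by 1.12 on the log2 scale (edgeR, SE 0.05, adjusted p = 1.04e-08), and by 1.05 in the axis fit, 1.01 in the length slope fit and 1.34 with the length trend removed. Among all tested genes, 0.776% had a larger log2 fold change.

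Hmgcs1 (chromosome 2, 51649497 to 51667100, plus strand) encodes the cytosolic synthase that adds a further acetyl unit to give HMG-CoA. Its level was 68.5, 61.2, 55.1, 67.2 and 62.6 CPM in control and 90.1, 101, 103, 100.3 and 79.5 CPM in farnesol replicates 1 to 5. Every farnesol library was above every control library, with control 3 and farnesol 5 the lowest of their groups. Hmgcs1 rose by 0.59 on the log2 scale (edgeR, SE 0.08, adjusted p = 0.000118). Its change was larger in the axis fit, 0.86, and the length slope fit, 0.95, and 0.72 with the length trend removed.

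Mevalonate is then phosphorylated and decarboxylated by Mvk, Pmvk and Mvd. Mvk, the mevalonate kinase (chromosome 12, 42141384 to 42158882, minus strand), was at 10.8, 13.5, 13.0, 11.99 and 12.4 CPM in control and at 25.8, 23.2, 22.8, 24.3 and 32.5 CPM in farnesol. The groups did not overlap, and farnesol 5 was the highest. Mvk rose by a log2 fold change of 1.06 (edgeR, SE 0.10, adjusted p = 8.54e-06). The axis fit gave 0.73 and the length slope fit 0.63, both past the threshold. With the length trend removed the value was 0.94.

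Pmvk, the phosphomevalonate kinase (chromosome 2, 174876657 to 174886364, plus strand), was at 6.59, 7.26, 9.63, 7.42 and 7.03 CPM in control and 16.3, 12.2, 12.1, 14.4 and 17.7 CPM in farnesol. It had the lowest mean CPM of the 8 in both groups. In farnesol the margin to Ggps1 was narrow (means of 14.52 and 14.56 CPM), and their ranges overlapped. Control 3 stood above the other controls, and still below every farnesol library. Its log2 fold change of 0.94 (edgeR, SE 0.13, adjusted p = 0.000140) became 0.50 in the axis fit (adjusted p = 0.00293). In the length slope fit it was 0.34 and the call ended (SE 0.15, adjusted p = 0.223). With the length trend removed the log2 fold change was 0.70. Pmvk is also the shortest of the 8, at 1170 bp, and in the shortest of 5 equal length classes of tested genes the median log2 fold change was 0.28 and 46.3% rose.

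Mvd, the mevalonate diphosphate decarboxylase (chromosome 19, 50496367 to 50507971, minus strand), was at 11.99, 12.4, 19.2, 14.7 and 12.3 CPM in control and at 35.4, 33.8, 30.4, 28.6 and 51.9 CPM in farnesol. Without a covariate it had the largest rise of the 8, and it had the largest spread, with a coefficient of variation of 21.7% in control and 25.8% in farnesol, control 3 and farnesol 5 being the highest of their groups. Across groups its log2 fold change was 1.35 (edgeR, SE 0.17, adjusted p = 6.59e-05). The value was 0.71 in the axis fit and 0.48 in the length slope fit (adjusted p = 0.0113), and only Pmvk of the 7 had a smaller value in either fit. With the length trend removed it was 1.41, and Fdps was above it. Without farnesol 5 the log2 fold change of Mvd was 1.19.

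Idi1 (chromosome 17, 61629594 to 61637357, minus strand) interconverts isopentenyl and dimethylallyl diphosphate, the isoprene units that the prenyltransferases join. Its level was 32.4, 29.5, 24.5, 29.2 and 31.7 CPM in control and 37.5, 41.6, 46.7, 38.6 and 33.3 CPM in farnesol. The groups did not overlap, but the lowest farnesol library, replicate 5, lay close to the highest control, replicate 1. Idi1 had the smallest rise of the 7, with a log2 fold change of 0.42 (edgeR, SE 0.10, adjusted p = 0.00234). The axis fit gave 0.76 and the length slope fit 0.88, and with the length trend removed it was 0.45.

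Fdps (chromosome 2, 174486665 to 174507776, minus strand), the farnesyl diphosphate synthase and the target of bisphosphonate drugs in bone, was the most abundant of the 8. It was at 163, 178, 199, 173 and 169.9 CPM in control and at 423, 400.2, 369, 421 and 506 CPM in farnesol, so each farnesol library held at least 369 CPM and no control more than 199 CPM. Fdps rose by 1.26 on the log2 scale (edgeR, SE 0.08, adjusted p = 2.52e-07), and by 0.97 and 0.88 in the axis and length slope fits. At 6803 bp, the length that its deposited counts and FPKM imply, Fdps is in the longest of the 5 length classes. In that class the median log2 fold change was -0.28 and 12.9% rose. With the length trend removed the log2 fold change of Fdps was 1.57, a value that depends on the length used.

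Ggps1 (chromosome 17, 51263263 to 51276220, plus strand) encodes the synthase of geranylgeranyl diphosphate, the donor for the lipid anchor of Rab and other small GTPases. Its level was 19.4, 18.0, 17.2, 16.9 and 19.2 CPM in control and 13.99, 15.3, 16.1, 15.8 and 11.6 CPM in farnesol. All farnesol libraries were below all controls, by a narrow gap between farnesol 3 and control 4. Ggps1 had a log2 fold change of -0.32 (edgeR, SE 0.09, adjusted p = 0.0100). The axis fit gave -0.03 (adjusted p = 0.864) and the length slope fit 0.04 (adjusted p = 0.908), so the fall was no longer called and its sign turned with the latter. With the length trend removed it was -0.25 and still called (edgeR, adjusted p = 0.0228). Groups that do not overlap in this direction were found in 20.9% of tested genes, and 19.8% did so in the direction of the other 7 enzymes.

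**Figure D2:**
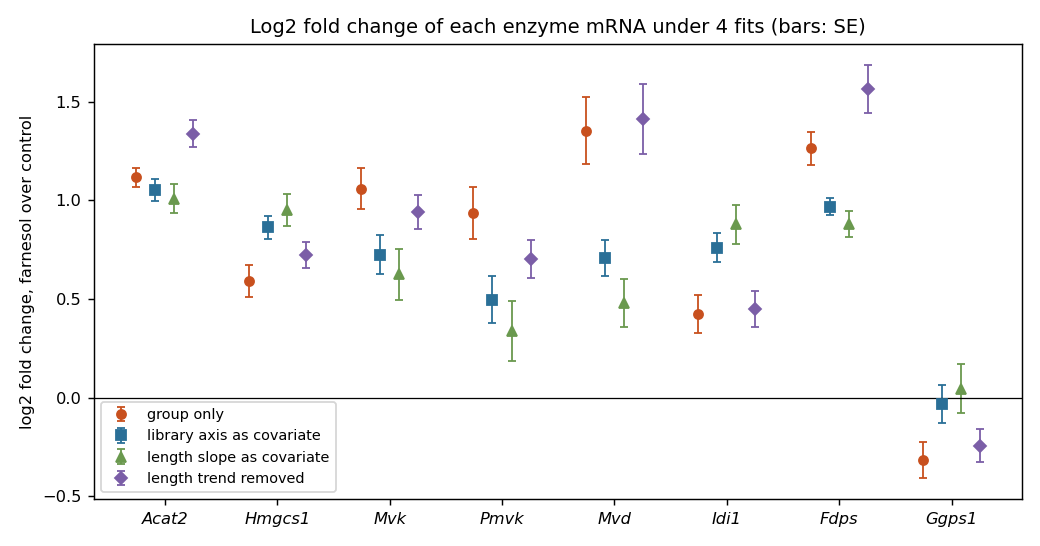
Log2 fold change of farnesol over control with its SE (edgeR, 5 against 5 libraries) for each enzyme, in pathway order, with group as the only term, with the library axis or the length slope as a covariate, and with a length trend removed. The 7 enzymes before Ggps1 stay above 0 in all 4 fits, Hmgcs1 and Idi1 moving up and the other 5 moving down when a covariate is added. Ggps1 moves from -0.32 to near 0 with a covariate and is at -0.25 with the length trend removed.

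Whether the enzymes changed by unequal amounts was tested on the ratio of 2 mRNAs within each library, which does not depend on library size, with a 2-sided exact permutation test over the 10 libraries for each of the 28 pairs and Benjamini-Hochberg adjustment over them. The smallest p that 5 against 5 libraries allow is 0.00794, which is 0.0202 after adjustment here. The ratio changed in 19 pairs, and in 11 the groups did not overlap. How often pairs of other tested genes change was not computed, and 59.5% of all tested genes changed singly. These counts therefore do not set the pathway apart from other genes. Without control replicate 2, or without control replicate 5, 11 pairs changed.

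All 7 pairs with Ggps1 were among those 11. That outcome was fixed beforehand, since the other 7 enzymes were higher and Ggps1 lower in every farnesol library than in every control. The p of these 7 pairs, the smallest possible, therefore adds nothing to the separation of the single enzymes. The ratio of Fdps to Ggps1 counts was 8.35, 9.89, 11.5, 10.2 and 8.83 in control replicates 1 to 5 and 30.1, 26.1, 22.8, 26.6 and 43.3 in farnesol replicates 1 to 5. Every farnesol ratio was thus well above every control ratio, and the mean difference was 1.58 on the log2 scale, or a 2.99-fold change (exact permutation p = 0.00794, adjusted p = 0.0202). For the other 6 enzymes over Ggps1 the mean log2 difference ranged from 0.75 for Idi1 to 1.66 for Mvd, at the same p. The gap between the fitted log2 fold changes of the 7 enzymes and that of Ggps1 was 0.53 to 1.08 with the axis and 0.29 to 0.97 with the length slope as covariates, values for which no test was made.

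Among the 7 enzymes that rose, Hmgcs1 and Idi1 had the smallest rises without a covariate, an order that turned with either covariate, where both lay above Mvk, Mvd and Pmvk. The ratio of Acat2 to Hmgcs1 was 0.646, 0.769, 0.895, 0.739 and 0.769 in control and 1.15, 1.04, 0.995, 1.01 and 1.33 in farnesol, which are groups that do not overlap (mean log2 difference 0.53, exact permutation p = 0.00794, adjusted p = 0.0202). Hmgcs1 over Fdps differed by -0.67 (exact permutation p = 0.0159, adjusted p = 0.0296) and Idi1 over Fdps by -0.84 at the same p. As differences between fitted log2 fold changes these gaps were 0.19, -0.10 and -0.21 in the axis fit. In the length slope fit they were 0.06, 0.07, with the sign turned, and -0.0013. Other gaps turned sign in the axis fit, for which no test was made: Hmgcs1 over Mvk went from -0.47 to 0.14, Hmgcs1 over Mvd from -0.76 to 0.16, Mvk over Idi1 from 0.64 to -0.03 and Mvd over Idi1 from 0.93 to -0.05. Hmgcs1 and Idi1 differed from each other by 0.17 (exact permutation p = 0.0238, adjusted p = 0.0392). Mvk over Fdps fell by 0.21 on the log2 scale, with groups apart (exact permutation p = 0.00794, adjusted p = 0.0202), and -0.24 was the gap with the axis as a covariate. In 9 pairs the change of the ratio did not pass, among them Acat2 with Mvk (0.07, exact permutation p = 0.492) and Mvd with Fdps (0.08, exact permutation p = 0.579).

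The enzymes also varied within groups in a shared way. In control 3, Mvd, Pmvk and Fdps lay 0.47, 0.35 and 0.18 above their group mean on the log2 scale, and Hmgcs1 and Idi1 lay 0.19 and 0.26 below. In farnesol 5, Mvd, Mvk, Pmvk and Fdps were above by 0.56, 0.35, 0.30 and 0.26, while Hmgcs1, Idi1 and Ggps1 were below by 0.25, 0.24 and 0.31. Farnesol 3 showed the reverse, with Idi1, Ggps1 and Hmgcs1 above by 0.25, 0.16 and 0.12, and Pmvk, Mvd, Fdps and Mvk below. Acat2 stayed within 0.11 of its group mean in every library. Control 3 and farnesol 5 have the highest axis scores of their groups, 4.06 and 59.9, and farnesol 3 the lowest of its group, -0.074. Without control 3 and farnesol 3 together, the calls of all 8 enzymes kept their direction and their side of the threshold.

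**Figure D3:**
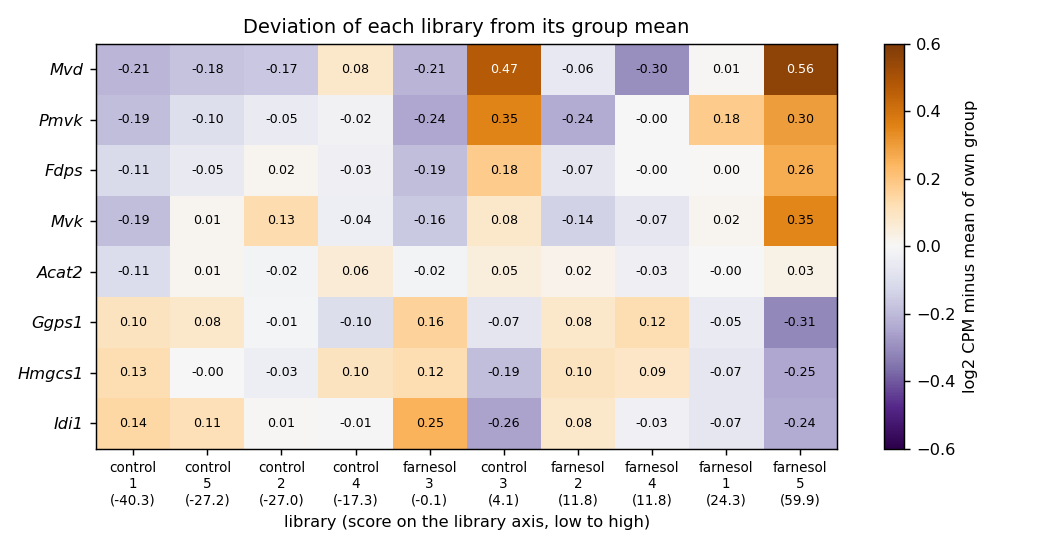
Deviation of log2 CPM from the mean of the library's own group, for each enzyme (rows) and library (columns, ordered by the score on the library axis given in brackets). Control 3 and farnesol 5 show Mvd, Pmvk and Fdps high with Hmgcs1 and Idi1 low, and farnesol 3 the opposite, while Acat2 is close to 0 throughout.

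The tested genes most like the mean of the 8 enzymes within groups, of 12789 outside the gene lists, were Dda1, Mrpl38, Sod3, Ap2s1 and Plp2. Pearson's r of their deviations from the group means was 0.992 to 0.994 over the 10 libraries. This is a description of the highest values among many genes, and the libraries share the axis above. The mean does not stand for each enzyme. Within groups Hmgcs1, Idi1 and Ggps1 varied against Mvk, Pmvk, Mvd and Fdps, with an r of -0.96 between Idi1 and Fdps. Sod3, a secreted superoxide dismutase, was at 525 ± 54.4 CPM in control and 520.4 ± 63.8 CPM in farnesol (SD, n = 5), which did not pass (adjusted p = 0.908, edgeR). Its groups overlapped, unlike those of the enzymes. Dda1, Mrpl38, Ap2s1 and Plp2 rose, by 0.35, 0.44, 0.44 and 0.43 on the log2 scale (edgeR, adjusted p = 0.000761 to 0.0109), where 29.4% of all tested genes rose. Of these, Plp2 alone had groups that did not overlap.

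Compared per gene length, with the deposited FPKM values (fragments scaled to gene length and to depth), Fdps had the highest level in control at 25.8 ± 2.07 FPKM (SD, n = 5), followed by Hmgcs1 at 17.02 ± 1.41 FPKM. Idi1 at 10.4 ± 1.07 and Acat2 at 9.81 ± 0.45 FPKM came next, and their ranges overlapped. Pmvk, Mvk, Ggps1 and Mvd, at 6.44, 6.26, 5.69 and 4.58 FPKM, formed an order in which each overlapped the next. In farnesol, Fdps was at 62.6 ± 6.44 FPKM, followed by Hmgcs1 at 26.0 ± 3.06 and Acat2 at 21.5 ± 0.289, which overlapped. Idi1, Mvk, Pmvk and Mvd lay between 11.8 and 14.1 FPKM, each overlapping the next, and Ggps1, at 4.64 ± 0.641 FPKM, was below all of them. The summed level of the 8 was 85.9 ± 2.11 FPKM in control and 166 ± 6.93 FPKM in farnesol. Of that sum, Fdps held 30% ± 1.67 in control and 37.5% ± 2.29 in farnesol, and Ggps1 6.64% ± 0.545 and 2.8% ± 0.481. The length behind an FPKM value is the one that the deposited values imply, and a length that counts exons unused in these cells would lower the level shown.

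**Figure D4:**
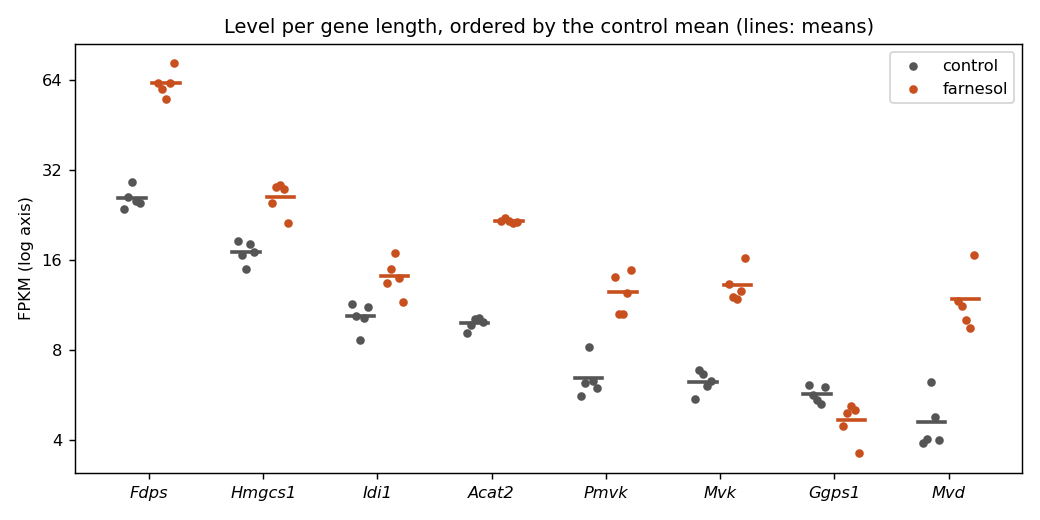
Deposited FPKM (log axis) of the 8 enzymes in each control (grey) and farnesol (orange) library, with group means as lines, ordered from high to low by the control mean. Fdps is highest in both groups, and with farnesol Ggps1 is the lowest, at 4.64 FPKM on average.

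Acat2l1 and Idi2, close copies of Acat2 and Idi1, contributed few counts. Acat2l1, a copy of Acat2 next to it on chromosome 1, was at 0.0444 CPM in control and 0.0313 CPM in farnesol. Idi2, the second isomerase gene, was at 0.069 and 0.0308 CPM, so neither copy was tested. Acat1, the mitochondrial thiolase, was at 49.6 ± 2.58 and 53.6 ± 2.39 CPM and did not pass (log2 fold change 0.11, adjusted p = 0.0984, edgeR), whereas the cytosolic Acat2 rose. The sources used here do not say how reads matching several genes were counted.

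Mvk, Ggps1 and Idi1 are each transcribed away from a close neighbour. Mmab, which makes adenosylcobalamin, starts 207 bp from Mvk on the opposite strand. It rose from 3.45 ± 0.167 to 5.52 ± 0.362 CPM (1.6-fold, adjusted p = 0.000158, edgeR), a call that held with the axis and ended with the length slope (adjusted p = 0.192). Arid4b, a chromatin protein, starts 357 bp from Ggps1 on the opposite strand. It fell from 30.9 ± 6.84 to 14.6 ± 3.77 CPM (2.12-fold lower, adjusted p = 0.000464, edgeR), and its log2 fold change of -1.08 became -0.32 in the axis fit and -0.07 in the length slope fit, where it was not called. Mmab and Arid4b moved in the direction of their enzyme, and the neighbour of Idi1 did not, where 29.4% of all tested genes rose and 30.1% fell. At 5802 bp Arid4b is in the longest of the 5 length classes, in which 52.7% fell. Whether these neighbours are controlled together with the enzymes was not tested. Cyba, a subunit of NADPH oxidase, lies 646 bp beyond Mvd on the same strand and rose 1.31-fold with overlapping groups, but was called as lower with either covariate. Wdr37 overlaps the start of Idi1 on the opposite strand and fell from 13.4 ± 1.12 to 10.1 ± 1.66 CPM, against the rise of Idi1. Reads in that overlap cannot be told apart if counting ignored strand.

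Genes that feed the route and that draw on it were counted from lists chosen by role. Of 10 tested genes of acetyl-CoA supply and the mitochondrial counterparts, 5 rose and 1 fell, where 29.4% of all tested genes rose and 30.1% fell, with a median log2 fold change of 0.23. Acss2, which makes acetyl-CoA from acetate, rose 1.76-fold, Slc25a1, the mitochondrial citrate carrier, 1.86-fold, and Acly, which splits citrate in the cytosol, 1.27-fold. Aacs, which activates acetoacetate for lipid synthesis in the cytosol, rose 1.63-fold. These 4 were also called with either covariate, whereas the fall of Oxct1, a mitochondrial enzyme of ketone body use, was not. Of all tested genes, 8.9% rose in the axis fit and 3.02% in the length slope fit.

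Of 15 genes that use farnesyl or geranylgeranyl diphosphate or an isoprene unit from the route, 6 rose and 2 fell, with a median log2 fold change of 0.13. The share that rose, 6 of 15, is to be read against 29.4% of all tested genes. Fdft1, the squalene synthase that commits farnesyl diphosphate to sterols, rose from 52.5 ± 2.29 to 96.6 ± 3.62 CPM (1.84-fold), and its log2 fold change of 0.88 was 0.82 and 0.80 with the covariates. It was the 1 gene of the 15 that was called with either covariate, where 8.9% of all tested genes rose in the axis fit and 3.02% in the length slope fit. Fnta and Fntb, the subunits of the protein farnesyltransferase, were named for their use of farnesyl diphosphate after their values were seen. Fnta had a log2 fold change of 0.08 (edgeR, adjusted p = 0.208), and Fntb rose by 0.21 (edgeR, adjusted p = 0.0105) and was not called with either covariate. Pggt1b, a subunit of a protein prenyltransferase that uses geranylgeranyl diphosphate, fell from 15.6 ± 2.49 to 10.3 ± 1.21 CPM with overlapping groups, and Rabggta, of the Rab transferase, rose from 11.4 ± 0.731 to 16.2 ± 2.84 CPM. Neither was called with a covariate.

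Beyond squalene, 12 of 13 enzymes of cholesterol synthesis rose and 1 fell, with a median log2 fold change of 0.61, where 29.4% of all tested genes rose. In the axis fit 12 rose and in the length slope fit 11, against 8.9% and 3.02% of all genes. Cyp51 rose 1.87-fold, Dhcr7 2.52-fold, Nsdhl 1.53-fold and Ebp 1.69-fold, all enzymes of the later sterol steps. Lbr, a nuclear envelope protein that also reduces sterols, was the gene that fell, 1.33-fold lower, and it was not called with either covariate. Of 8 tested genes that process prenylated proteins or recycle prenols and dolichol, 3 rose and 2 fell, shares near the 29.4% and 30.1% of all tested genes, and 1 rose in either covariate fit, where 8.9% and 3.02% of all genes rose. That gene, named after its values were seen, was Aldh3a2, a fatty aldehyde dehydrogenase that can oxidize farnesal, at 69.9 ± 3.94 and 76.8 ± 3.96 CPM. It did not pass without a covariate (log2 fold change 0.14, adjusted p = 0.0549, edgeR), and with the axis and the length slope it was 0.26 and 0.31.

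Of 18 tested genes of sterol sensing, sterol transport and degradation at the endoplasmic reticulum, 10 rose and 3 fell, against 29.4% and 30.1% of all tested genes, with a median log2 fold change of 0.20. In the axis fit 5 rose and in the length slope fit 3, against 8.9% and 3.02% of all genes. Srebf2, which encodes SREBP-2, rose from 41.6 ± 2 to 61.9 ± 2.92 CPM (log2 fold change 0.57, and 0.55 and 0.58 with the covariates). Insig1, itself a target of SREBP-2 that retains it in the endoplasmic reticulum, rose 2.06-fold. Mbtps2, a protease that releases SREBP-2, fell from 10.1 ± 2.12 to 5.49 ± 1.12 CPM, a call that ended with either covariate.

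**Figure D5:**
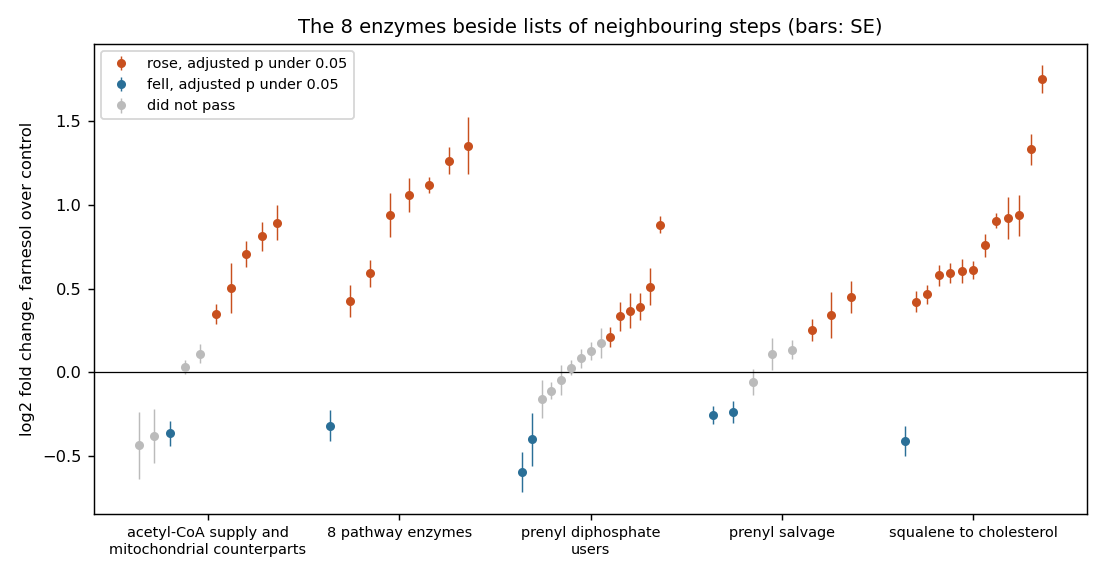
Log2 fold change of farnesol over control with its SE for each tested gene of 5 lists in pathway order, genes sorted by fold change within a list (orange, rose; blue, fell; grey, did not pass at an adjusted p under 0.05 by edgeR). Of the 8 pathway enzymes 7 rose and of the 13 enzymes from squalene to cholesterol 12, where 29.4% of all tested genes rose and 30.1% fell. Of the 15 users of prenyl diphosphates 6 rose, 2 fell and 7 did not pass, with Fdft1 the highest of them at 0.88.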

How the data were processed

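RNA of 10 libraries, 5 control and 5 farnesol by the titles, was analysed from 1 table. The authors deposited read counts and FPKM values per gene and library, per the file headers. Build rn7 and the tools StringTie, DESeq, HTSeq 0.9.1 and HISAT2 2.0.5 are listed, per the submitters' processing notes, without roles. The strand setting was not given in the sources used here. Of 23052 rows 1 exact repeat was removed. Totals ran from 41.8 to 47.1 M counts, and 3 counts, the limit that a count of 0 allows, are 0.0637 to 0.0717 CPM (counting error only).

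Counts were tested across all genes under R 4.3.3 by edgeR 4.0.16 (TMM scaling, filterByExpr, robust glmQLFit and glmQLFTest, Benjamini-Hochberg over 12893 genes at 0.05). The SE is the size of the log2 fold change over the square root of F. CPM uses TMM-scaled sizes, log2 CPM a prior count of 2. Gene length was taken from the ratio of counts to FPKM. Replicates differed beyond sampling noise (chi-square per gene 3.96 to 112 over 20 pairs). Same-numbered libraries did not deviate together (correlations across genes -0.401 to 0.0524). Alternatives were other scalings, filters and tests (limma 3.58.1, DESeq2 1.42.0), FPKM, each library left out, a replicate block, and covariates. Steps were tested on simulated data.

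The members, lists and tests were chosen with earlier results of these data known. The naming rule took all 8 members, up to 5 genes of each list by smallest p, adjacent genes and the 5 genes most like the members within groups; other list genes are given by counts or for a stated reason. Some genes of these lists are not reported here.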

Additional observations from a re-analysis of the deposited data

Results flagged for a closer look

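In 16 groups of 5 libraries (8 enzymes, control and farnesol), 2 libraries stood apart from the rest of their group by Dixon's test, where chance gives about 1 in 20 groups. Pmvk in control replicate 3 was 9.63 CPM, with 6.59 to 7.42 CPM in the other controls, and Mvd in farnesol replicate 5 was 51.9 CPM, with 28.6 to 35.4 CPM in the others. These 2 libraries have the highest scores of their groups on the library axis, 4.06 and 59.9; the part of the axis in them was not tested. Without control replicate 3 the log2 fold change of Pmvk was 1.04, and without farnesol replicate 5 that of Mvd was 1.19, both still called.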

How the results depend on the processing

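The number of enzymes that rose was 7, and 6 or 7 under the 25 alternatives, 6 only with the length slope added. The number that fell was 1, and 0 with the library axis or the length slope as a covariate. Acat2, Hmgcs1, Mvk, Mvd, Idi1 and Fdps were called in the same direction under all 25. The call of Pmvk ended with the length slope (log2 fold change 0.34). The log2 fold change of Ggps1 was -0.03 with the axis, where the call ended, and 0.0437, the other sign, with the length slope. The changed genes over the whole table were 7671, 2656 with the axis, 976 with the length slope and 6880 to 7904 with 1 library left out; 6409 were called with the replicate number as a block, under which each of the 8 enzymes stayed called. The pairs of enzymes whose ratio changed were 19, and 11 to 21 with 1 library left out, the lowest without control replicate 2 or control replicate 5. With control 3 and farnesol 3 left out together, an alternative chosen after seeing the data, 22 pairs and 8074 genes were called. The cause of these differences was not tested.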
